A study of Mus musculus with 12 samples.

Results

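Probes for ion channel genes were followed across arrays of the embryonic mouse thalamus, from wild-type (WT) embryos and from embryos without Gbx2 (knockout, KO). A probe was taken where its deposited symbol starts with Kcn (potassium channels), Scn (sodium channels) or Cacn (calcium channels) and where it was detected on at least 2 arrays of a chip, with a detection score above 0.95. The name rule matched 263 of the 45281 probes of chip 2, by the symbol there or in the table that joins the chips, for 135 genes, and the detection rule left 127 probes for 77 genes. Of these probes 87 could be read on both chips and 40 on chip 2 only. The name rule also brings in families that are not gated by voltage, namely inward rectifier and tandem-pore potassium channels, and single genes such as Kcnrg, Scnm1 and Scnn1b, so results are given by class. Near the detection limit, 13 probes were detected on exactly 2 arrays and taken, and 28 were detected on 1 array and not taken. Their median highest intensities on chip 2 were 189.8 and 188.25.

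Voltage-gated channels are built around a large pore-forming subunit, and smaller accessory subunits set how many pores reach the membrane and how fast they open and close. Sodium channels start the action potential, potassium channels end it and hold the resting potential, and calcium channels turn depolarisation into calcium entry. Thalamic neurons are known for low-threshold T-type calcium channels, which let them fire in bursts.

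The study measured total RNA of microdissected diencephalon from embryos of strain CD1 at E12.5 on Illumina bead arrays. The WT thalamus and Gbx2-KO thalamus groups hold 4 arrays each, replicates 1 and 2 on chip 1 and replicates 3 and 4 on chip 2. Chip 1 also carries 1 array of WT epithalamus and 1 of WT prethalamus, tissues that border the thalamus. Gbx2 encodes a homeobox transcription factor of developing thalamic neurons. The series title frames the work around thalamic against habenular identity. Replicate 5 of each genotype, on chip 2, is marked in the labels as an excluded outlier and was kept out of every comparison unless named. The labels give neither the knockout allele nor whether an array holds 1 embryo or several, so each p-value covers no more than the spread from array to array, which may be technical. All intensities below are on a log2 scale within a chip and are not compared between chips, which carry different probe sets.

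The share of probes detected per array was 30.7% to 36.0% for chip 1 and 44.8% to 46.4% for chip 2. Gbx2 itself was lower in KO by 1.27 in log2 (SE 0.27, n = 4 per genotype, limma adjusted p = 0.0408); its probe may lie outside the deleted part. Of 6 thalamic markers, with Gbx2 again among them, 5 were measured, and 3 fell: Gbx2, Rora and Ntng1. On a log2 scale the summed signal of the 5 was 13.96 and 13.56 on the WT thalamus arrays of chip 1. It was 9.995 on the epithalamus array and 9.43 on the prethalamus array. Gbx2 made up most of the thalamus sums, at 13.73 and 13.30 on those WT arrays, against 6.35 and 8.27 on the epithalamus and prethalamus arrays. Of 8 proliferation markers 7 were measured and 4 rose. Their summed signal was 12.4996 and 11.59 in WT against 12.94 and 12.91 in KO on chip 1, and 14.03 and 14.23 against 15.80 and 14.96 on chip 2. Pan-neuronal markers were less uneven: of 12, 8 were measured, 1 rose, and their summed signal was 13.999 and 14.04 in WT against 13.97 and 13.997 in KO on chip 1, and 16.16 and 16.11 against 15.53 and 16.07 on chip 2. GABAergic and prethalamic markers, of which 2 of 7 were measured and neither passed, varied among arrays of 1 genotype, with sums of 6.41 and 9.71 for WT replicates 1 and 2, and 7.42 and 9.61 for KO replicates 3 and 4. Their sum was 11.03 on the epithalamus array and 12.17 on the prethalamus array, both above every thalamus array of chip 1. Progenitor markers, of which 5 of 8 were measured, gave 0 higher and 1 lower, Slc1a3. Habenular markers, of which 4 of 6 were measured, gave 0 in either direction. Their summed signal was 10.18 on the epithalamus array, below the 10.54 and 10.50 of the WT thalamus arrays of chip 1. The list thus did not mark the epithalamus here, and its 0 calls give no reading of habenular identity. On that array Nr4a2 and Isl1 read above both WT thalamus arrays, and Etv1 and Gng8 below. Nr4a2, at 9.66 against 8.05 and 7.19, stood at 0.77 between genotypes (SE 0.34, limma adjusted p = 0.235). The part of all these markers in the channel results was not tested. RNA was taken from whole tissue pieces, so fewer neurons that express a channel and less of its RNA per neuron cannot be told apart.

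In the KO thalamus 4 channel genes were lower by probes read on both chips. They are Cacna1h, a T-type calcium channel pore, Kcnc1, a fast delayed rectifier potassium channel, Scn2a, the main axonal sodium channel pore of young neurons, and Scn3b, a sodium channel beta subunit. Of 47 channel genes that passed the detection filter of the joint fit, these 4 were lower and 0 were higher at an adjusted p below 0.05 (limma, Benjamini-Hochberg over 10396 genes). Over all genes tested 1.48% were lower and 1.39% higher, 2.87% in either direction. At an unadjusted p below 0.05 there were 14 channel genes lower and 2 higher, against 10.8% and 10.1% of all genes. The log2 difference was negative for 34 of the 47 and positive for 13, and negative for 5435 of all 10396 genes. Its median was -0.24 over the 47, against -0.02 over all genes. Every KO array lay below every WT array of its chip, on both chips, for 11 of the 47 genes, against 9.75% of all genes, and above for 2, against 10.3%. Kcnf1, Kcnip2, Kcnip3, Kcnu1, Kcnk5, Scn1a and Cacna1d belong to the channel set. They lie outside the separate rule, given with the processing, for which of its genes are named, and were picked after their values were seen. The 47 genes passed a filter on detection on at least 4 of the 8 arrays, and 23 of them were detected on all 8. The number of calls was sensitive to single arrays. Leaving out WT replicate 1 gave 5 calls, WT replicate 3 gave 1, KO replicate 2 gave 1 and KO replicate 3 gave 2. There were 0 without WT replicate 2, WT replicate 4, KO replicate 1 or KO replicate 4.

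**Figure D1:**
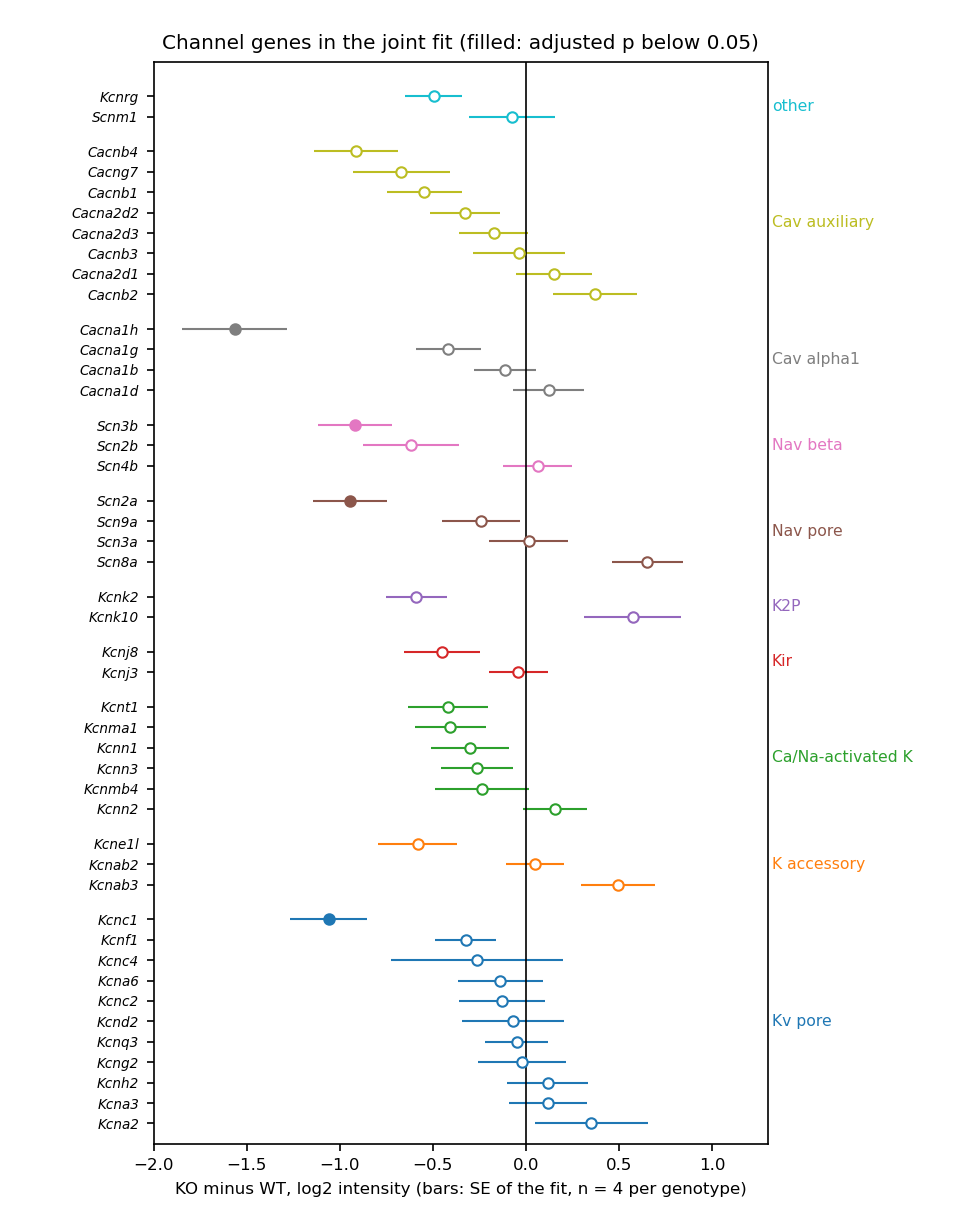
Difference between KO and WT thalamus in log2 intensity (x axis) for 45 of the 47 channel genes of the joint fit (rows), by class; bars are the SE of the fit with 4 arrays per genotype, and filled points have an adjusted p below 0.05. The 4 filled points, Cacna1h, Kcnc1, Scn2a and Scn3b, all lie left of 0, and the range over genes is -1.57 to 0.65.

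On chip 2, 38 further channel probes of 27 genes without a partner on chip 1 were tested with 2 arrays per genotype. Probes of 2 potassium accessory subunits, Kcnab1 and Kcnip1, were lower and 0 probes were higher, against 0.426% and 0.0983% of the 21369 chip 2 probes tested. Both were detected on the WT arrays and on no KO array, so they entered the test through the group in which they were high. Of the 38 probes 4 did so, these 2 and those of Kcnip2 and Kcnu1, and the count of 2 is a description. At an unadjusted p below 0.05, 11 of the 38 passed, 2 of them higher, against 8.74% of all chip 2 probes lower and 9.37% higher. The difference was negative for 29 and positive for 9, and negative for 10939 of all 21369 probes tested. Its median was -0.28 over the 38, against -0.02 over all probes of that chip. Both calls were lost without KO replicate 3 (adjusted p = 0.112 and 0.258), and that of Kcnip1 without KO replicate 4 (adjusted p = 0.056).

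The stretch around the start of transcription is shown for those of the 6 genes above that have an entry in the RefSeq promoter table of build GRCm38.p6, to set the regions that could be read by a homeobox factor side by side. Each run goes from 250 bases before to 50 bases after the start that lies farthest upstream among those listed, 5′ to 3′ on the gene's strand. Capitals mark TAAT or its reverse complement ATTA, the core recognised by many homeodomains. Kcnc1 has 1 listed start, at chr7:46396218-46396517 on the + strand. Scn2a has 2, the first at chr2:65620519-65620818 on the + strand. Kcnab1 has 3, the first at chr3:64948962-64949261 on the + strand. Kcnip1 has 3, the first at chr11:33993144-33993443 on the - strand.
Kcnc1: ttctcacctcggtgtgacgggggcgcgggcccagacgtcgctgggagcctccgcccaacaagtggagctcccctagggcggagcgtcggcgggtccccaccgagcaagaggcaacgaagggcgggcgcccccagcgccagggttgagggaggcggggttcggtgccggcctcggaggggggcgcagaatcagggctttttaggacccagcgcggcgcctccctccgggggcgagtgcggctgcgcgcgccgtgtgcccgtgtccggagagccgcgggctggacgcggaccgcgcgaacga
Scn2a: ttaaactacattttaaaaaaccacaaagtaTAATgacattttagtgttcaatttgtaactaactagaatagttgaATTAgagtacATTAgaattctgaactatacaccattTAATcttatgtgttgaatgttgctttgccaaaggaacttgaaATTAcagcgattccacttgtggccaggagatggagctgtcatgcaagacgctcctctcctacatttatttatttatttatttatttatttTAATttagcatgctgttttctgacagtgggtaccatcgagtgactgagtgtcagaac
Kcnab1: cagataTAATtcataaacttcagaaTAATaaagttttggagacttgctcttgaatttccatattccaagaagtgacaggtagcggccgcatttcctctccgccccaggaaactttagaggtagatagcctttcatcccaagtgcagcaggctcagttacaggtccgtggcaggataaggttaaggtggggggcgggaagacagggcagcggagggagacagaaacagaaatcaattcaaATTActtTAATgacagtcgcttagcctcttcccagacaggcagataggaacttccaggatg
Kcnip1: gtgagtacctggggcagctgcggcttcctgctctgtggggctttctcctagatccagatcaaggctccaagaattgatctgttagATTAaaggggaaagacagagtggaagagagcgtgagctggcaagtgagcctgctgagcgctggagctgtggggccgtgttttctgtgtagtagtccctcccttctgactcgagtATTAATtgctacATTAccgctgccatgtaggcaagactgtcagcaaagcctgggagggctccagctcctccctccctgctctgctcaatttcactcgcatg

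The core occurs 6 times in the Scn2a run, 4 times each in those of Kcnab1 and Kcnip1, and 0 times in that of Kcnc1, counting both strands and overlapping matches. The Kcnc1 run is rich in G and C, at 74.7% with 41 CG dinucleotides, whereas the Scn2a run holds 33.0% and 3. Over all 32851 listed promoters, 58.0% hold the core. Of the 80 promoters of the 53 channel genes with an entry 47.5% hold it. The longer form TAATTA, which reads the same on both strands, is in 5.29% of all promoters and in 0 of the 80. Channel promoters held a median of 11 CG dinucleotides, against 7 over all. These are matches of letters in a short window and say nothing about binding.

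**Figure D2:**
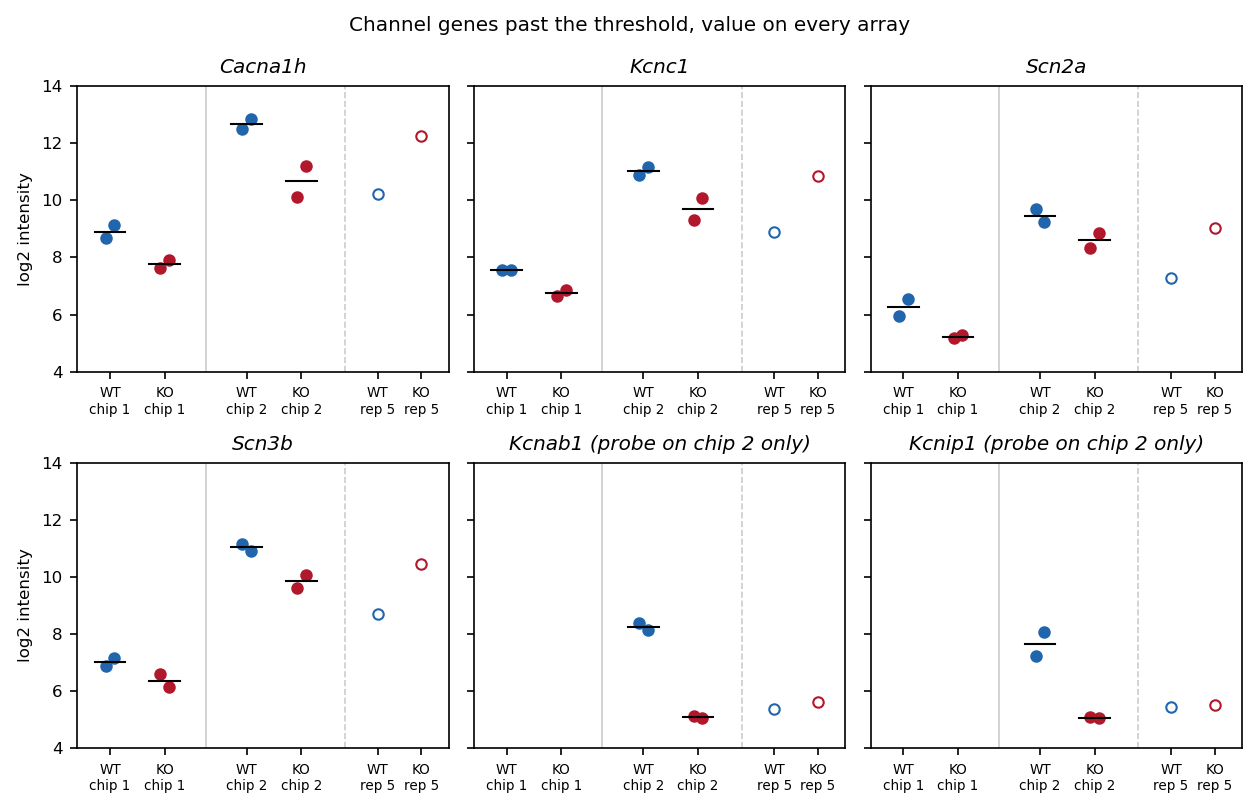
Log2 intensity (y axis) on every array for the 6 channel genes past the threshold, by genotype and chip (x axis); filled points are the kept arrays, lines their means, and open points the excluded replicate 5. KO arrays lie below WT arrays of the same chip in each panel, and on the open points of Cacna1h, Kcnc1, Scn2a and Scn3b the order is the opposite.

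Among voltage-gated potassium pores, 13 genes were measured on both chips, and 1 fell. Kcnc1, whose channel allows rapid repetitive firing, read 7.58 and 7.55 in WT against 6.64 and 6.87 in KO on chip 1. The chip 2 values were 10.88 and 11.15 in WT, against 9.31 and 10.10 in KO. The groups did not overlap on either chip. Kcnc1 fell by 1.06 in log2 (SE 0.21, n = 4 per genotype, adjusted p = 0.0326), which is 2.09-fold. The chip 2 table gives this probe a clone name, and it is named here from the joined table. Its adjusted p stayed below 0.05 in 2 of the 8 fits that leave out 1 array, those without WT replicate 1 or KO replicate 3, and reached 0.117 without WT replicate 4.

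Kcnf1, a silent modulatory pore subunit, also had separated arrays on both chips, and did not pass, at -0.32 (SE 0.16, adjusted p = 0.298). On chip 1 Kcnf1 was not above background on any thalamus array, so the separation there is only an order of background readings. A further 9 potassium pore genes lay between -0.26 and 0.35. They include Kcna6, a Shaker-type channel, at -0.14 (SE 0.23), and the A-type channel gene Kcnd2 at -0.07 (SE 0.27). Of 7 probes of this class on chip 2 only, 0 passed.

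Among 8 potassium accessory subunit genes, Kcnab1 and Kcnip1 fell on chip 2. Kcnab1 encodes a cytoplasmic beta subunit that speeds inactivation of Shaker-type channels. Its chip 2 probe read 8.39 and 8.13 in WT and 5.15 and 5.05 in KO, where it was not above background. This is at least 5.40-fold lower (fitted log2 difference -3.16, SE 0.29, n = 2 per genotype, adjusted p = 0.00743, for a probe that entered the test through its WT arrays). A second Kcnab1 probe, present on both chips, read 8.17 and 8.42 against 5.45 and 5.57 on chip 2. It is at least 5.53-fold lower there (adjusted p = 0.0126 on chip 2 alone, a reading added after the data were seen). That probe too entered the chip 2 test only through its WT arrays, where it was high, so its p-value has the same limit. On chip 1 that probe was not above background on any thalamus array, with values of 5.01 and 4.77 against 4.71 and 4.61, so chip 1 gives no check. The third probe, dim on both chips, read 6.30 and 6.02 against 5.77 and 5.60 on chip 2 (adjusted p = 0.431).

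Kcnip1 encodes a calcium-binding partner of A-type channels. On chip 2 the WT arrays read 7.24 and 8.07 and the KO arrays 5.08 and 5.05, not above background. Kcnip1 was at least 3.55-fold lower (fitted log2 difference -2.59, SE 0.35, n = 2 per genotype, adjusted p = 0.0336), with the same limit as for Kcnab1. Without background correction the fitted differences shrank to -1.48 for Kcnab1, which still passed, and -1.12 for Kcnip1, which did not (adjusted p = 0.117). Its relatives Kcnip2, at 6.14 and 6.49 against 5.31 and 5.03, and Kcnip3, at 6.12 and 7.09 against 5.15 and 6.03, were not called (adjusted p = 0.129 and 0.272). Kcnip2 was not above background on any KO array and entered the test through its WT arrays, so its p-value has the same limit. Among accessory subunits in the joint fit, Kcne1l stood at -0.58 (SE 0.21, adjusted p = 0.164) and Kcnab2 at 0.05 (SE 0.16). Kcnab3 stood at 0.50 (SE 0.20, adjusted p = 0.201) and was 1 of the 2 channel genes with every KO array above every WT array of its chip. Differences between the beta subunit genes were not tested.

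Potassium channels that respond to calcium or sodium gave 0 calls among 6 genes, and 0 at an unadjusted p below 0.05. Kcnma1, the large-conductance calcium-activated channel, stood at -0.41 (SE 0.19, adjusted p = 0.259), and 2 further probes on chip 2 at -0.65 and -0.58. The sodium-activated channel gene Kcnt1 stood at -0.42 (SE 0.21, adjusted p = 0.30), detected on 4 of 4 WT arrays and 1 of 4 KO arrays. Kcnn1, a small-conductance calcium-activated channel, stood at -0.30 (SE 0.21), and Kcnmb4, the neuronal beta subunit of the large-conductance channel, at -0.24 (SE 0.25). All 6 probes of this class on chip 2 only, which belong to 4 genes, were negative, against 10939 of all 21369 chip 2 probes tested. The lowest of them, of Kcnu1, a pH-sensitive channel best known from sperm, read 6.62 and 6.65 in WT against 5.18 and 5.09 in KO, not above background (adjusted p = 0.0754). The Kcnu1 probe entered the test only through its WT arrays, where it was high, so its p-value has the same limit as those of Kcnab1 and Kcnip1.

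Inward rectifier and tandem-pore channels, which set the resting potential, gave 0 calls (limma), with 1 gene lower in the joint fit and 1 probe higher on chip 2 at an unadjusted p below 0.05. Of 14 inward rectifier genes that matched the name rule 3 were detected and 2 entered the fit. Kcnj3, a subunit of G protein-gated channels, stood at -0.04 (SE 0.16). Kcnj8, a subunit of channels closed by ATP and also a pericyte marker, stood at -0.45 (SE 0.20, adjusted p = 0.242). Tandem-pore channels, which leak potassium at rest, were detected for 6 of 14 genes. Kcnk2, a stretch-sensitive leak channel, read 8.57 and 8.35 in WT against 7.75 and 7.87 in KO on chip 1, and 9.13 and 9.45 against 8.55 and 8.98 on chip 2, without overlap. Its difference of -0.59 (SE 0.16) did not pass (adjusted p = 0.0917). The closely related Kcnk10 pointed the other way, at 0.57 (SE 0.26, adjusted p = 0.247). On chip 1 it differed by 0.07 and on chip 2 by 1.08. Kcnk5 had the largest positive value among chip 2 probes, 7.36 and 7.73 in WT against 9.03 and 8.49 in KO (log2 difference 1.22, SE 0.33), and was not called (adjusted p = 0.133).

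Sodium channel pores were split in sign. Scn2a read 5.97 and 6.54 in WT against 5.17 and 5.29 in KO on chip 1, and 9.69 and 9.24 against 8.34 and 8.86 on chip 2. WT lay above KO on both chips, and on 2 of the 4 KO arrays, those of chip 1, the probe was not above background. Scn2a fell by 0.95 in log2 (SE 0.20, n = 4 per genotype, adjusted p = 0.0401), or 1.93-fold. With the chip 1 KO readings raised to the lowest detected signal of their arrays the fall was 1.76-fold, a value added after the data were seen. Its second joined probe stood at -0.82 (adjusted p = 0.0853 with every probe tested on its own), and the mean of both probes gave an adjusted p of 0.0529. Among the fits that leave out 1 array, only that without WT replicate 1 kept the call, and the adjusted p ranged from 0.0285 to 0.125.

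None of the other sodium channel pores passed, and their differences from Scn2a were not tested. Scn8a, which takes over from Scn2a at mature axon initial segments, read 5.55 and 5.24 in WT against 6.01 and 6.15 in KO on chip 1, and 7.70 and 6.98 against 8.12 and 7.78 on chip 2. Every KO value was above every WT value of its chip, and the difference of 0.65 (SE 0.19) had an adjusted p of 0.106. A second Scn8a probe stood at 0.32. Scn3a, the main sodium channel of the embryonic brain, stood at 0.02 (SE 0.21), with its other probes between -0.08 and 0.27, and Scn9a at -0.24 (SE 0.21). Scn1a, a channel of the mature brain best known from inhibitory neurons, was measured on chip 2 only, at 9.56 and 9.49 in WT against 9.002 and 8.99 in KO (adjusted p = 0.367).

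Beta subunits anchor sodium channels and change their gating. Scn3b read 6.87 and 7.16 in WT against 6.61 and 6.13 in KO on chip 1, and 11.15 and 10.91 against 9.62 and 10.06 on chip 2. The arrays did not overlap by this probe, which fell by 0.92 in log2 (SE 0.20, n = 4 per genotype, adjusted p = 0.0436), or 1.89-fold. Its other probes did not show the same: the second joined one stood at -0.19, and those on chip 2 only at 0.19 and -0.03. With the mean of the 2 joined probes Scn3b stood at -0.55 and was not called (adjusted p = 0.133). The call of Scn3b held in 1 of the 8 fits that leave out 1 array, that without WT replicate 1, with a highest adjusted p of 0.133 without WT replicate 4. Scn2b stood at -0.62 (SE 0.26, adjusted p = 0.214) and Scn4b at 0.06 (SE 0.19).

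Of the calcium channel pores, 4 genes were in the joint fit and Cacna1h fell. The chip 1 values were 8.68 and 9.12 in WT and 7.63 and 7.93 in KO. For chip 2 they were 12.49 and 12.86 in WT and 10.12 and 11.22 in KO. No KO array reached the WT arrays of its chip. The difference was -1.57 in log2 (SE 0.28, n = 4 per genotype, adjusted p = 0.0258), or 2.96-fold, the largest in size among the 47 channel genes. It was -1.12 on chip 1 and -2.01 on chip 2. Its adjusted p stayed below 0.05 without WT replicate 1, KO replicate 2 or KO replicate 3, and was highest, 0.0944, without WT replicate 4.

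Cacna1g, the other T-type pore measured, was represented by its brightest probe, at 9.24 and 9.83 in WT against 9.35 and 9.02 in KO on chip 1 and 11.19 and 10.99 against 10.63 and 10.59 on chip 2. That probe stood at -0.42 (SE 0.18) and was not called (adjusted p = 0.216). A second, dimmer probe was lower on all KO arrays, at 8.46 and 8.65 against 7.91 and 7.77 on chip 1 and 9.54 and 9.69 against 8.42 and 8.72 on chip 2. With every probe tested on its own it stood at -0.88 (adjusted p = 0.0268), and was thus the fifth channel probe past the threshold in that fit. The remaining Cacna1g probes are a dim pair designed to opposite strands of the same stretch of chromosome 11. They are shown because signal from the wrong strand would not be the channel's messenger RNA. The first run gives the last 30 bases of the probe on the named strand and the second the first 30 bases of the probe on the reverse strand, with the 29 bases that pair with the other run in capitals.
Cacna1g named strand: aTGTACGACATTTTGTGACTGAAGAGACTT
Cacna1g reverse strand: cAAGTCTCTTCAGTCACAAAATGTCGTACA
Over their full 50 bases, 49 pair. The first was above background on 1 of 4 WT and 0 of 4 KO arrays, and the second on 2 of 4 and 0 of 4. Both were too dim for the test, and no difference is drawn from them. The high-threshold pores Cacna1b, of presynaptic terminals, and Cacna1d, of L-type currents, stood at -0.11 (SE 0.17) and 0.12 (SE 0.19).

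Accessory subunits of calcium channels gave 0 calls among 8 genes, 6 of them negative and 3 lower at an unadjusted p below 0.05. Cacnb4, a cytoplasmic beta subunit that carries pores to the membrane, read 6.56 and 6.87 in WT against 5.80 and 5.75 in KO on chip 1, and 7.18 and 8.26 against 6.75 and 6.91 on chip 2. Its arrays did not overlap, and at -0.91 (SE 0.23) it missed the threshold (adjusted p = 0.0663). Further Cacnb4 probes on chip 2 stood at -0.82 and -0.20. Cacnb1 stood at -0.55 (SE 0.20, adjusted p = 0.17) and Cacng7, a relative that regulates AMPA receptors, at -0.67 (SE 0.26, adjusted p = 0.187), both with nearly all of the difference on chip 2. Their chip 1 values, at most 4.73, were not above background. Cacna2d1 and Cacna2d2, alpha2delta subunits on the outer face of the channel, stood at 0.15 (SE 0.21) and -0.33 (SE 0.19). Outside the channel families proper, Kcnrg, a protein that holds back assembly of potassium channels, stood at -0.50 (SE 0.15, adjusted p = 0.115) and the splicing factor gene Scnm1 at -0.07 (SE 0.23).

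**Figure D3:**
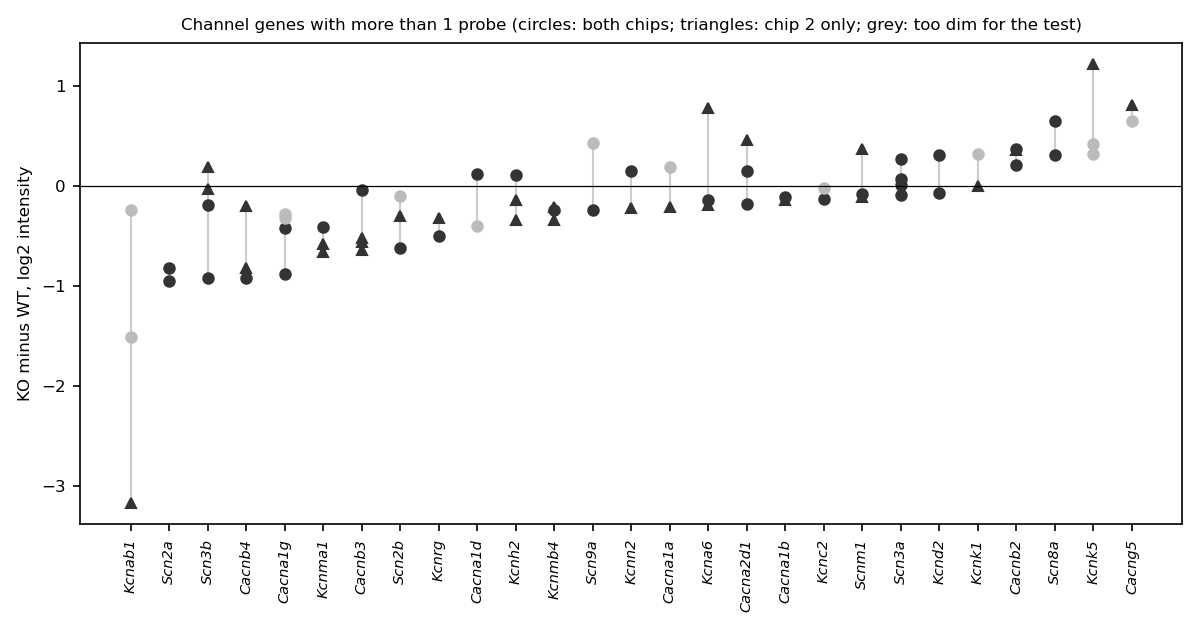
Difference between KO and WT thalamus in log2 intensity (y axis) for 27 channel genes with more than 1 probe (x axis); circles are probes read on both chips, triangles probes on chip 2 only, and grey points were too dim for the test. The probes of Kcnab1 all lie below 0, whereas those of Scn3b range from -0.92 to 0.19.

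The genotype difference was also read on each chip. Over the 47 genes the median difference was -0.11 on chip 1, against 0.02 for all genes, and -0.29 on chip 2, against -0.05. For Kcnc1 the differences were -0.81 and -1.31, for Scn2a -1.03 and -0.86, and for Scn3b -0.65 and -1.19. The difference between chips was tested as an interaction, which passed for 0 channel genes and for 0 of all genes at an adjusted p below 0.05. Its unadjusted p was below 0.05 for 3 channel genes, against 5.82% of all genes.

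**Figure D4:**
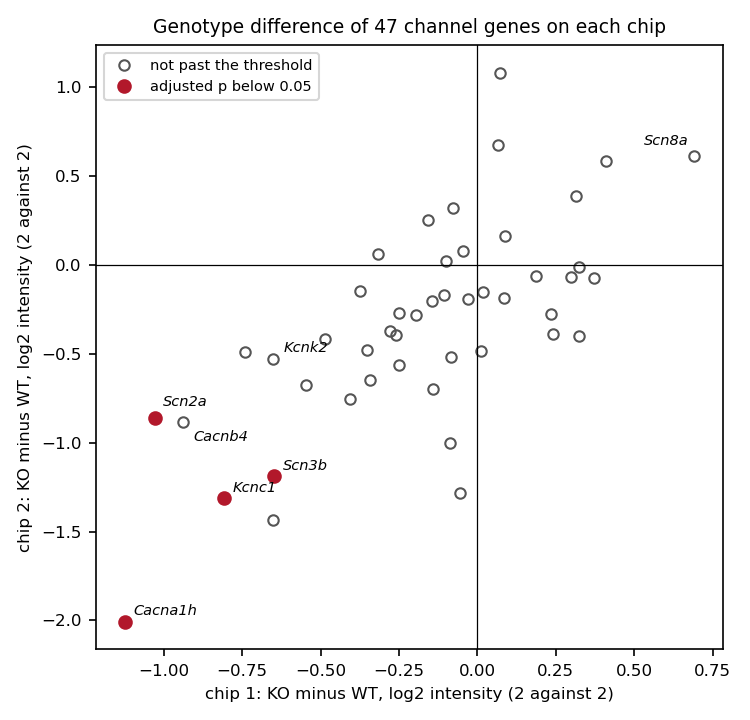
Difference between KO and WT thalamus in log2 intensity on chip 1 (x axis) and on chip 2 (y axis) for the 47 channel genes, each from 2 arrays per genotype; filled points have an adjusted p below 0.05 in the joint fit. The 4 filled points lie in the lower left, with Cacna1h at -1.12 and -2.01, and Scn8a lies in the upper right.

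The excluded pair of arrays ran against these falls. Normalised together with the rest of chip 2, Cacna1h read 10.21 on WT replicate 5 and 12.26 on KO replicate 5, Kcnc1 8.88 and 10.85, Scn2a 7.30 and 9.05, and Scn3b 8.70 and 10.44. For each of these 4 genes the excluded KO array was the higher one, as for 32 of the 47 channel genes and 5324 of all 10396. Kcnab1 and Kcnip1 read low on both, at 5.38 and 5.61 and at 5.43 and 5.52, close to the KO arrays and not to WT replicates 3 and 4. Gbx2 followed its labels, at 15.18 on WT replicate 5 and 13.69 on KO replicate 5. On the same scale the summed proliferation markers read 15.76 on WT replicate 5, above the 14.004 and 14.20 of the kept WT arrays, and 14.17 on KO replicate 5, below the 15.78 and 14.94 of the kept KO arrays. The pan-neuronal sum was 14.83 on WT replicate 5 against 16.16 and 16.09, and 16.14 on KO replicate 5 against 15.51 and 16.06. Thus on chip 2 the arrays with the higher proliferation sums were those with the lower readings of the 4 genes, WT replicate 5 and the kept KO arrays; the part of these markers in the falls was not tested. With replicate 5 of each genotype included, 0 channel genes passed (3 lower at an unadjusted p below 0.05), and all 4 differences stayed negative, from -0.84 for Cacna1h to -0.39 for Scn3b.

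Genes that work with the channels but lie outside the name rule gave 0 calls in either direction among 20 of 33 measured (limma), with 8 lower and 1 higher at an unadjusted p below 0.05 (10.8% and 10.1% of all genes), 14 negative and 6 positive and a median of -0.29 against -0.02 over all genes. The list holds pacemaker and leak channels, ankyrins and other scaffolds, intracellular FGFs, calmodulins, pumps and chloride transporters. Its lowest values were those of the calmodulin gene Calm2 at -0.92 (SE 0.32), the synaptic secreted protein gene Lgi1 at -0.83 (SE 0.30) and the sodium channel-binding FGF genes Fgf12 at -0.81 (SE 0.27) and Fgf13 at -0.67 (SE 0.20), with adjusted p values of 0.143, 0.156, 0.138 and 0.106. Ank3, the ankyrin that clusters sodium channels at the axon initial segment, stood at -0.21 (SE 0.23), and Amigo1 and Dpp6, partners of delayed rectifier and A-type channels, both at -0.48 (SE 0.16). The sodium pump gene Atp1b1 stood at 0.03 (SE 0.19). These genes were picked from the list after their values were seen.

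In the WT prethalamus the readings of 3 alpha2delta subunit genes and of the A-type channel gene Kcnd2 differed from those of the thalamus beyond the limit set here. Each region has 1 array, so there is no test, and a gene was counted where it differed from each WT thalamus array of chip 1 by a log2 of 1 or more, with the same sign. Genes were compared where the probe was detected on the region array or on both WT thalamus arrays of chip 1. On the prethalamus array 3 of 48 channel genes were higher and 1 lower, against 1.18% and 0.951% of all genes compared. The count of 3 was 1 at a log2 limit of 1.5, without background correction, and with the deposited values, where Cacna2d2 was left; Cacna2d1 stayed lower in each. Cacna2d2 read 10.74 on the prethalamus array against 7.79 and 8.05 on the thalamus arrays. Only the chip 2 symbol gives its probe this name. Cacna2d1 read 7.52 against 10.07 and 9.67, and its second joined probe 5.40 against 7.76 and 7.73. Cacna2d3 read 6.05 against 4.96 and 4.93, not above background in thalamus, and was at least 1.48-fold higher. Cacna2d3 entered the comparison only through the prethalamus array, where it was high. The bound of 1.48-fold falls short of the limit of 1 in log2, so its place in the count is a description. Kcnd2 read 7.38 against 5.73 and 6.10, and a second probe 7.33 against 5.98 and 4.99. The prethalamus array was thus above the thalamus arrays for Cacna2d2 and below them for Cacna2d1. Kcnf1 lay just outside the limit, at 0.99 as the smaller difference. It too was not above background in thalamus, and was at least 1.81-fold higher. Of these 5 genes 0 passed the test between genotypes.

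On the epithalamus array 0 of 43 channel genes were higher and 0 lower by that rule, against 0.948% and 0.693% of all genes. Below the limit lay Kcnc1, at 6.94 against 7.58 and 7.55, and Cacna2d2, at 8.66 against 7.79 and 8.05. The median difference over the channel genes was -0.15 on the epithalamus array and -0.02 on the prethalamus array, against 0.03 and 0.01 over all genes. Between them the WT thalamus arrays differed by 1 or more in 2 of the 43 genes. Of the genes that fell in KO, Cacna1h read 8.40 on the epithalamus array and 8.62 on the prethalamus array, below both WT thalamus values of 8.68 and 9.12 and above both KO values of chip 1. Kcnc1, at 6.94 and 7.09, likewise lay between the genotypes. Scn2a, at 6.00299 and 6.11, lay between the WT values of 5.97 and 6.54. Scn3b read 6.55 on the epithalamus array, between its KO values of 6.61 and 6.13, and 7.78 on the prethalamus array, above both WT values. The 4 genes thus did not share an order across regions.

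**Figure D5:**
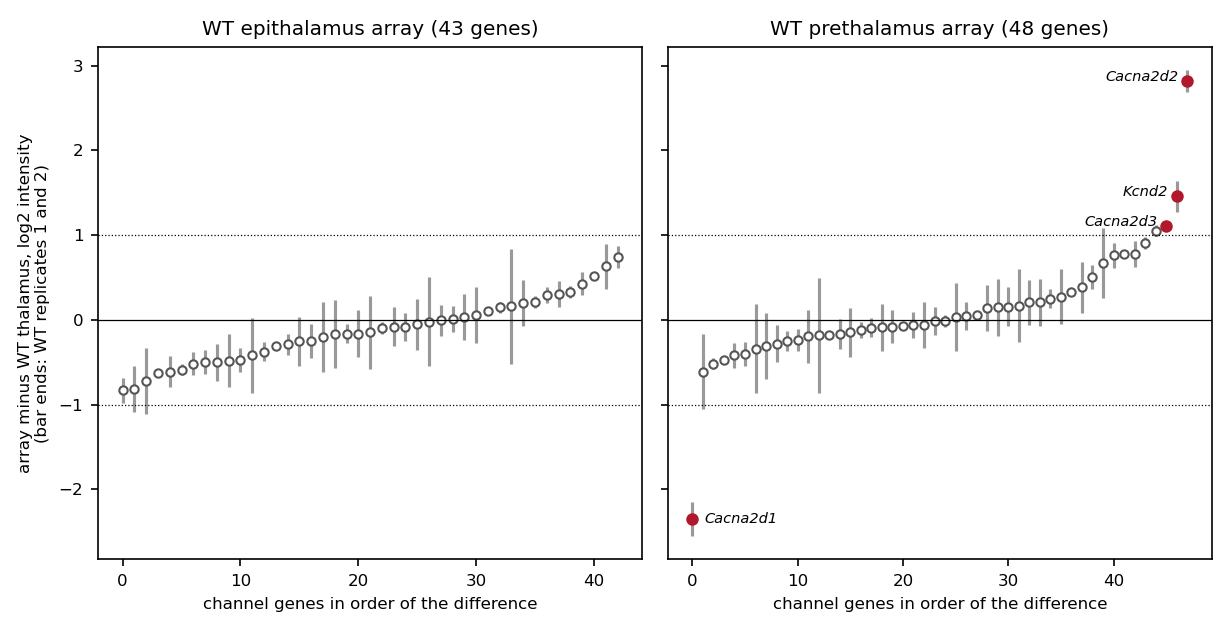
Difference in log2 intensity (y axis) between the WT epithalamus array (left) or WT prethalamus array (right) and the WT thalamus arrays of chip 1, for channel genes in order of the difference (x axis); bar ends are the differences from WT replicates 1 and 2 and points their mean. Filled points, 3 above and 1 below on the prethalamus array, are beyond 1 against both.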

How the data were processed

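The authors' unnormalized tables give the bead intensity of each probe, and a detection fraction. Per the file headers, that of chip 2 is a GenomeStudio export without normalization; the chip 1 table has no such header. The deposited fraction, headed a p-value for chip 2, rises with signal on both chips, and 1 minus it served as detection p. The authors' normalized tables hold log2 values and served as an alternative. BeadStudio, GenomeStudio and lumi are listed, per the submitters' processing notes, and no source used here says which step made the log2 tables.

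Names were updated through RefSeq tables of GRCm38.p6. Of 31459 joined probes, 31448 were used. Each chip was normalised by neqc (limma 3.58.1, R 4.3.3, offset 16). The joint fit took probes with detection p under 0.05 on 4 or more of 8 arrays, the probe with the highest mean standing for its gene, and used limma's lmFit and eBayes (two-sided, chip as a block). Probes on chip 2 only were fitted on that chip, if detected on 2 or more of its 4 kept arrays. P-values were adjusted by Benjamini-Hochberg over all features tested. For a probe not above background in a whole group, the fold is a bound: the mean of the bright group over the dim group's floor, which on each array is the lowest detected signal or, if higher, the probe's value. The number of arrays limits the precision.

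The channel set and all gene lists were chosen with earlier results of these data known. Named genes were Gbx2, those past a threshold, per class the 3 with the smallest p and the 2 with the highest mean, up to 6 per direction counted on a region array, and those whose probes disagree in direction with 1 past the threshold. A dim probe named Cacna1d in the joined table is named Chdh in that of chip 2. The probes that stand for Cacna2d2 and Kcnmb4 are channel probes by the chip 2 symbol only, with a LOC name as joined symbol. Those that stand for Kcnc1, Kcnk10, Cacnb4, Kcnt1, Scn2b, Scn4b and Scn9a are channel probes by the joined symbol only, with a clone or LOC name on chip 2. Some genes are counted in totals and not reported by name here.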

Additional observations from a re-analysis of the deposited data

Results flagged for a closer look

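Within each genotype, values of the named genes were taken from the mean of the kept thalamus arrays of their chip, and 1 array that stood far from the other 3 was looked for (Dixon's test at the 95% level). This marked 3 of 70 groups of 4 arrays. For independent values chance marks about 1 in 20. The values here share a chip mean taken over both genotypes, so that rate is only a rough guide. Cacna2d1 read -0.39 on WT replicate 2, with the other WT arrays between 0.01 and 0.04. Kcnt1 read -0.26 on WT replicate 1, with the others between 0.31 and 0.40. Kcnrg read 0.48 on WT replicate 3, with the others between 0.17 and 0.17. Of these genes 0 were called between genotypes.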

How the results depend on the processing

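Of the channel genes read on both chips 4 were lower and 0 higher, and the count higher was 0 under every alternative run. The count lower was 1 without background correction, 7 with the deposited log2 values, 2 with an offset of 50, 0 with no detection filter, 2 with the mean of the detected probes of a gene, 0 on chip 1 alone, 0 on chip 2 alone and 0 with replicate 5 of each genotype included. It ranged from 0 to 5 when 1 array was left out, while all genes called went from 63 to 612 against 298. Without the filter more genes are tested, and with 1 chip or 1 array fewer there are fewer samples; for the other changes the cause was not tested. The 7 with deposited values and the 6 with chip as a random block hold all 4 genes. The median difference stayed negative throughout, and each of the 4 genes kept its sign. Of chip 2 probes without a partner 2 were lower and 0 higher. That became 0 lower with no detection filter, 0 detected on all 4 arrays (both drop out in KO), 1 without background correction, 0 with replicate 5 included, and 0 to 2 when 1 array was left out; the deposited log2 values hold 0 of these probes, so that alternative was not run. Of the prethalamus differences the count higher, 3, was 1 at a log2 limit of 1.5, 1 without background correction and 1 with the deposited values.

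Same-numbered WT and KO arrays had correlated deviations of -0.11 on chip 1 and 0.12 on chip 2. With 2 arrays per genotype on a chip, both pairs of the chip give the same value. These values therefore cannot decide whether the numbers are pairs, and the main fit did not take them as such. With the replicate number as a block, 5 channel genes were lower, 3 of them among the 4 (Scn3b had an adjusted p of 0.0626). Of the chip 2 probes 7 were lower and 1 higher, in a fit of replicate and genotype to 4 arrays that leaves very little to estimate the spread. The shares over all genes and probes under this model are not given here, so these counts are not read as a result about channels.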
